A study of Homo sapiens with 4 samples.

Results

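The heme synthesis genes were examined in TT-seq data from K562 cells in which the elongation factor IWS1 had been depleted. They were taken as the rows of the deposited gene table whose name is *ALAS1*, *ALAS2*, *ALAD*, *UROS*, *UROD*, *CPOX*, *PPOX*, *FECH* or *HMOX1*. Of these 9 names, 8 had a row among the 10147 genes listed. *HMOX1*, the inducible enzyme of heme breakdown, had no row and was not analysed here.

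K562 is a human leukemia line of erythroid character. In the line used here, the IWS1 protein carries an N-terminal dTAG in both groups, which lets the ligand dTAG7 direct it to degradation. The control cells received the solvent (DMSO) and the dIWS1 cells received 500 nM dTAG7, in each case for 1 h. Newly made RNA was then labelled with 500 µM 4-thiouridine (4sU) for 5 min, isolated and sequenced, with 2 libraries per group according to the labels. The control cells therefore share the tag with the dIWS1 cells, and cells without the tag were not analysed here.

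The deposited table gives 1 mean per gene over 4 library columns. Whole reads behind these means were recovered for every gene, which showed 1 control column entered with the weight of 2 equal columns and 2 different dIWS1 columns. A second, different control column was not found in the means. The control was counted once, and only dIWS1 thus has a measured spread between libraries. The columns held 29832118 reads in genes for the control, 20684301 for dIWS1 column 1 and 20886697 for dIWS1 column 2. Counts were divided by the size factors that the authors obtained from synthetic spike-in RNAs, and such values are called normalized reads. Of 14 genes typical of K562 cells, 11 had a row, and *HBA1*, *HBA2* and *BCR* had none. Of 9 genes typical of other blood cells only *LYZ* and *PTPRC* had one. Per kb of gene span, *PTPRC* had 128 normalized reads in the control and *LYZ* 10.2. *GATA1* had 192, *TAL1* 110 and *KLF1* 105. The authors left out overlapping genes, so a missing row does not show that a gene was silent.

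Heme is an iron-containing ring that hemoglobin, cytochromes and catalase need. Its synthesis begins in the mitochondrion, where ALAS joins glycine and succinyl-CoA, continues in the cytosol with enzymes that include ALAD, UROS and UROD, and returns to the mitochondrion for CPOX, PPOX and FECH. ALAS1 is the form of the first enzyme found in all tissues, and ALAS2 is the form of erythroid cells. In red cell precursors *ALAS2* is switched on together with the globin genes, in large part by GATA1.

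The promoters show how the genes for the first step differ in sequence, and the promoter of *CPOX* is set beside them because it shares letters with both. RefSeq promoter sequences (GRCh38.p14) were matched for 7 of the 8 genes. *UROS* had no entry. Shown are the 150 bases in front of the annotated start of each gene, 5′ to 3′ on the strand of the gene. Capitals mark GATAA, the core letters bound by GATA factors, and GGGCGG, the core letters bound by SP1-type factors, each on either strand (TTATC and CCGCCC on the other one). The *ALAS2* stretch lies on the minus strand at chrX:55030978-55031127, that of *ALAS1* on the plus strand at chr3:52197933-52198082, and that of *CPOX* on the minus strand at chr3:98593612-98593761.
ALAS2: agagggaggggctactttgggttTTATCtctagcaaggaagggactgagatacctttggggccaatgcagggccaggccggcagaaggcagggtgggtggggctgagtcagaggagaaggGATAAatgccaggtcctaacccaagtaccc
ALAS1: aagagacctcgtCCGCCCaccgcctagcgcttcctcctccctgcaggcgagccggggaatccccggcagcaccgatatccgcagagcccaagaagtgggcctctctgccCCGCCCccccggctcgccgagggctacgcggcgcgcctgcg
CPOX: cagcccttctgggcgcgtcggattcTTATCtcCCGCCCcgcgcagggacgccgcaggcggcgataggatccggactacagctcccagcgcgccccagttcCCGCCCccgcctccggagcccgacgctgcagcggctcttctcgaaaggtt

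*ALAS2* held GATAA at 2 places, from 127 to 123 and from 30 to 26 bases before the start, and no GGGCGG in its window of 300 bases (250 before the start and 50 after it). It was also the only one of these genes whose window held TGANTCA, the letters bound by NFE2- and AP-1-type factors, from 47 to 41 bases before the start. *ALAS1* held GGGCGG at 2 places, 138 to 133 and 41 to 36 bases before the start, and no GATAA. *CPOX* held both, with GATAA on the other strand at 2 places, from 207 to 203 and from 125 to 121 bases before the start, of which the second lies in the stretch shown. Of the 9 promoters annotated for the 7 genes, 3 held GATAA against 22.7% of all 35116 promoters, 7 held GGGCGG against 45%, and 1 held TGANTCA against 7.71%. *ALAD* and *PPOX* each had windows that overlap, so a site can count more than once. By gene, 3 of the 7 held GATAA, 6 held GGGCGG and 1 held TGANTCA. These matches describe letters in a window and do not show binding.

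In the control column, normalized reads per length of gene differed 29.3-fold between the highest and the lowest of the 8 genes, *UROD* and *UROS*. Exons take up 1193 bases of the 3.32 kb of *UROD* and 1336 bases of the 38.3 kb of *UROS*. Exon and intron reads were not told apart, so this fold need not be one of RNA synthesis alone. Levels are given as normalized reads per kb of RefSeq gene span, introns included, with an exact 95% Poisson interval that covers counting error only. *UROD*, which encodes the enzyme that decarboxylates uroporphyrinogen, stood highest at 350 (interval 330 to 371). *FECH*, the ferrochelatase that inserts iron into the ring, followed at 82.4 (79.7 to 85.1).

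*ALAS1* was next at 48.5 (45.2 to 52.0), 2.06 times the level of *ALAS2* at 23.5 (21.6 to 25.6). Between them lay *CPOX* at 37.7 (35.3 to 40.3) and *PPOX* at 33.9 (30.7 to 37.3), whose intervals overlap. *ALAD* at 12.7 (11.0 to 14.6) and *UROS* at 12.0 (10.9 to 13.1) were lowest, and their intervals overlap as well. All other neighbours in this order were separated by their intervals. Among all genes with a known span, 98.4% lay below *UROD* and 13.9% below *UROS* in the control column.

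The order of the 8 genes was the same after depletion. In dIWS1 the mean levels per kb ran from 247 ± 21.3 for *UROD* and 66.7 ± 5.09 for *FECH* down to 11.0 ± 0.189 for *ALAD* and 6.53 ± 0.397 for *UROS* (SD, n = 2). The gap between *ALAD* and *UROS*, within counting error in the control, was larger than the spread between the dIWS1 columns.

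**Figure D1:**
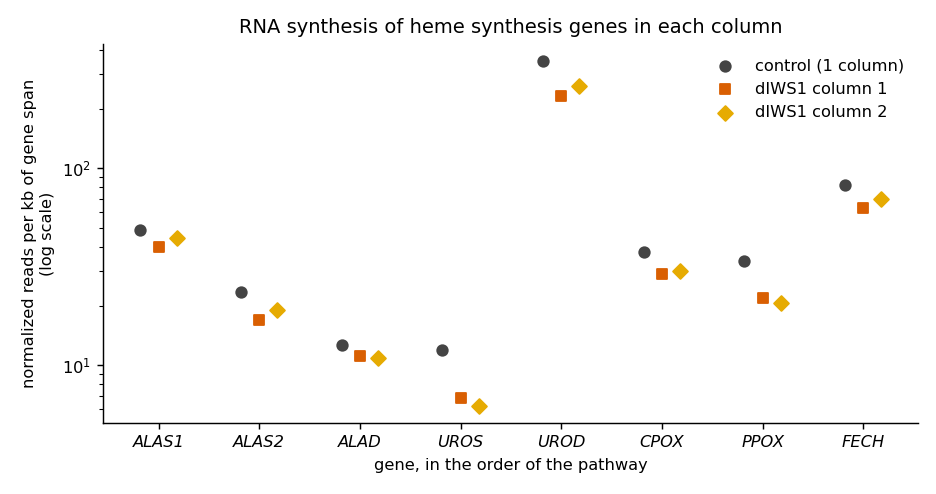
Normalized reads per kb of gene span (log scale) of the 8 heme synthesis genes in the control column (circles) and in dIWS1 columns 1 (squares) and 2 (diamonds), ordered by step of the pathway. *UROD* stands highest at 350 in the control and *UROS* lowest at 12.0, and the control lies above both dIWS1 columns for all 8 genes.

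To learn how these genes responded to the loss of IWS1, each dIWS1 column was compared with the control. Both dIWS1 columns lay below the control for 8 of 8 genes, as they did for most genes of the table, with 97.5% of all genes tested below the control in column 1 and 93.5% in column 2. By limma voom, with Benjamini-Hochberg adjustment over 10007 genes tested, 5 heme genes were called lower at an adjusted p under 0.05 (*ALAS2*, *UROS*, *UROD*, *CPOX* and *PPOX*). The same test called 65.0% of all genes tested lower. It called 0 heme genes higher and 0.130% of all genes. Without adjustment, 6 heme genes had a p under 0.05 for a lower value and 0 for a higher one, beside 69.3% and 0.180% of all genes tested. With the control entered 2 times, as it stands in the deposited means, limma voom called 7 heme genes lower and 0 higher. The shares of all genes in that fit were 78.3% and 0.549%. It takes 1 control library as 2 with no spread between them, so its calls do not count as evidence. The median log2 change of the 8 genes was −0.37, and that of all genes tested was −0.42 (quartiles −0.60 and −0.26). In such bulk cultures, fewer cells that make a transcript and less of it made per cell cannot be told apart.

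The genes for the first step had moderate changes. *ALAS1* (chromosome 3, 52198083 to 52214327, plus strand, 12 exons) had 788 normalized reads in the control, 646 in dIWS1 column 1 and 723 in column 2. Its log2 change of −0.21 did not pass the test (SE 0.13, limma voom adjusted p = 0.149). Column 2 alone gave −0.12, with a counting interval of −0.28 to 0.03 that includes 0, and column 1 gave −0.29 (−0.44 to −0.13).

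*ALAS2* (chromosome X, 55009055 to 55030977, minus strand, 11 exons) had 516, 373 and 417 normalized reads in the same order. Both dIWS1 columns lay below the control by more than their distance from each other, with log2 ratios of −0.47 and −0.31. The change of −0.39 was called (SE 0.13, limma voom adjusted p = 0.00636), which left synthesis at 76.3% of the control. The 95% intervals of the changes of *ALAS2* (−0.65 to −0.13) and *ALAS1* (−0.46 to 0.05) overlap widely, so that a difference between both forms of the enzyme was not shown.

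Among the genes of the cytosolic steps, *ALAD* and *UROS* lay at opposite ends of the range. *ALAD* (chromosome 9, 113386312 to 113401284, minus strand, 12 exons) makes the porphobilinogen-forming enzyme and had 190 normalized reads in the control, 167 in dIWS1 column 1 and 163 in column 2. With 192 reads in the control it was the least deeply covered of the 8 genes. Its log2 change of −0.20 did not pass the test (SE 0.16, 95% interval −0.52 to 0.12, limma voom adjusted p = 0.25).

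*UROS* (chromosome 10, 125784980 to 125823258, minus strand, 10 exons) makes the synthase that closes the ring. It had 462 reads in the control, 259 in dIWS1 column 1 and 220 in column 2, or 458, 261 and 239 after scaling. Its fall was the largest of the 8 genes, with a log2 change of −0.87 (SE 0.14, limma voom adjusted p = 7.42e-09), and left synthesis at 54.7% of the control. The log2 ratios were −0.81 in column 1 (counting interval −1.04 to −0.59) and −0.93 in column 2 (−1.17 to −0.70). Of all genes tested, 6.21% had a lower change.

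*UROD* (chromosome 1, 45012254 to 45015575, plus strand, 10 exons) had 1163 normalized reads in the control, 771 in column 1 and 871 in column 2. With a span of 3.32 kb it is the shortest of the 8 genes and the only one under 10 kb. Its log2 change was −0.50 (SE 0.14, limma voom adjusted p = 0.000705), or 70.5% of the control.

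The genes of the last mitochondrial steps fell to different extents. *CPOX* (chromosome 3, 98570488 to 98593611, minus strand, 7 exons), the coproporphyrinogen oxidase gene, had 873, 673 and 696 normalized reads in the control and in dIWS1 columns 1 and 2. Its log2 change was −0.35 (SE 0.13, limma voom adjusted p = 0.0148).

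*PPOX* (chromosome 1, 161165728 to 161178013, plus strand, 13 exons) makes the oxidase that forms protoporphyrin. It had 416 normalized reads in the control, 269 in column 1 and 255 in column 2, and both dIWS1 columns were clearly below the control. The log2 change was −0.67 (SE 0.14, limma voom adjusted p = 9.51e-06), the largest fall after that of *UROS*, and left 63.0% of the control.

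*FECH* (chromosome 18, 57544377 to 57586702, minus strand, 11 exons) was the most deeply covered, with 3520 reads in the control, 2651 in column 1 and 2734 in column 2. After scaling these were 3487, 2669 and 2974 normalized reads. The counting intervals of the log2 ratios excluded 0 in both columns, at −0.39 (−0.46 to −0.31) and −0.23 (−0.30 to −0.16). The change of −0.31 had an unadjusted p of 0.0425 in limma voom and did not pass after adjustment (SE 0.15, adjusted p = 0.0626).

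**Figure D2:**
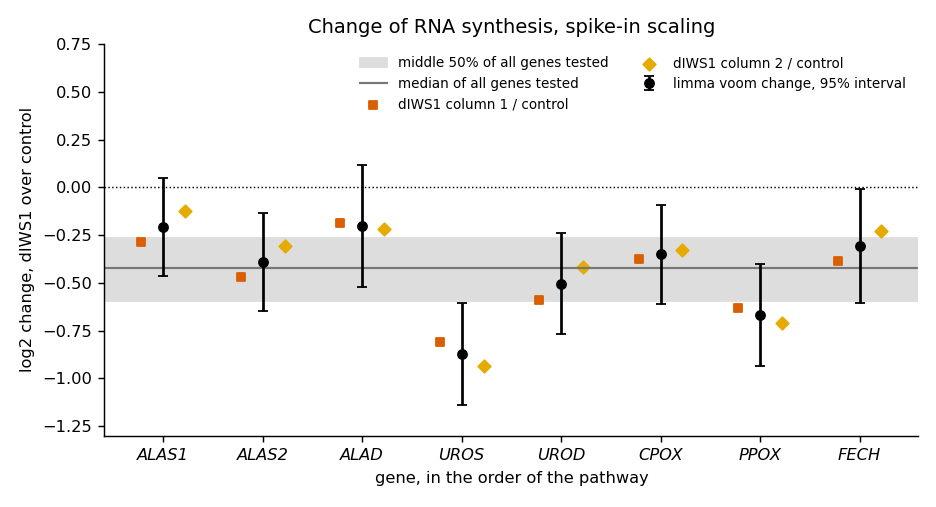
Log2 change (dIWS1 over control, spike-in scaling) of the 8 heme synthesis genes in the order of the pathway. Black points with bars are limma voom changes with 95% intervals, squares and diamonds are dIWS1 columns 1 and 2, and the line and band are the median (−0.42) and the quartiles of all genes tested. *UROS* and *PPOX* lie below the band, and *ALAS1* and *ALAD* above it.

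Because most genes fell under the spike-in scaling, the heme genes were also read relative to the median gene, by moving both dIWS1 columns up by the same 0.42 on the log2 scale. In this fit 1 heme gene, *UROS*, was called lower (4.86% of all genes tested) and 0 higher (2.94%). *UROS* was at −0.45 relative to the median gene (95% interval −0.71 to −0.18, limma voom adjusted p = 0.021). With limma trend in place of limma voom, an alternative added after the data were seen, it did not pass (−0.45, adjusted p = 0.0659). *PPOX* was at −0.24 (interval −0.51 to 0.02, limma voom adjusted p = 0.286) and *UROD* at −0.08. The other 5 genes lay above the median gene, from 0.03 for *ALAS2* to 0.22 for *ALAS1* and *ALAD*. The intervals of these 5 genes include 0, and the upper bounds for *ALAS1* and *ALAD* were 0.48 and 0.54. Their direction thus turns from below 0 under spike-in scaling to above 0 relative to the median gene.

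Normalized reads were generally higher in dIWS1 column 2 than in column 1. Over 8900 genes averaging 100 or more normalized reads, the log2 ratio to the control was higher in column 2 by 0.12 at the median (quartiles 0.04 and 0.19). *ALAS1*, *ALAS2*, *UROD* and *FECH* had such a gap, between 0.16 and 0.18, and in *CPOX* it was 0.05. *ALAD*, *PPOX* and *UROS* went the other way, by −0.03, −0.08 and −0.12, so that the lowest pair of genes was lower still in column 2. For *ALAD*, *PPOX* and *UROS* the counting intervals of both columns overlap, so a difference between the columns was not shown for them. The intervals of *FECH* did not overlap (−0.46 to −0.31 in column 1 and −0.30 to −0.16 in column 2). Both ratios of a gene share the same control count, so overlap of the intervals does not exclude a difference between the columns. The spread used in the fit includes this common gap between the columns. With median-of-ratios size factors, which remove the gap, the SE of *FECH* dropped from 0.15 to 0.06, that of *UROS* was 0.12, and *UROS* was again the only heme gene called (−0.45, limma voom adjusted p = 0.0312). That fit called 11.9% of all genes tested lower and 12.0% higher, so that 1 of 8 heme genes is near the share of all genes.

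**Figure D3:**
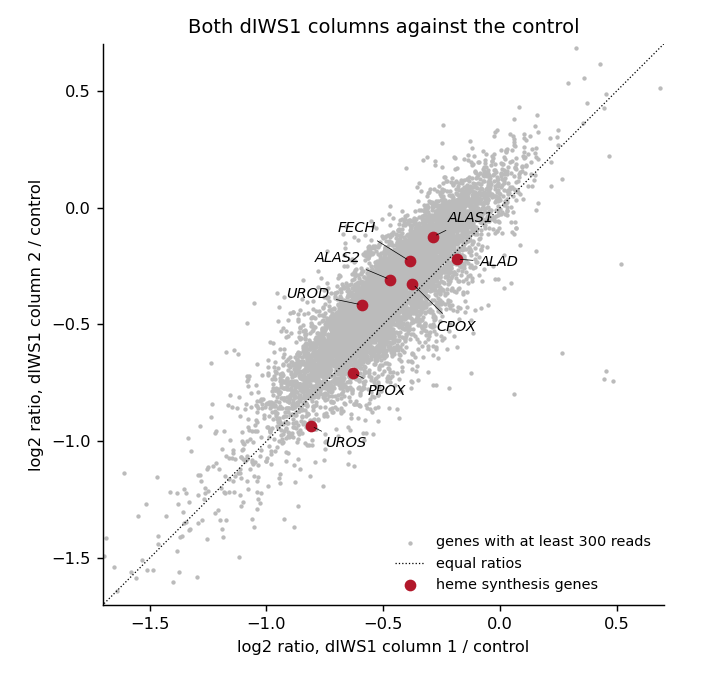
Log2 ratio to the control of dIWS1 column 1 (horizontal axis) against column 2 (vertical axis) for 8805 genes with at least 300 reads (grey, 11 of them outside the axes) and the 8 heme synthesis genes (red). Of the grey genes 82.8% lie above the dotted line of equal ratios, as do 5 of the heme genes, while *ALAD*, *PPOX* and *UROS* lie below it.

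The change showed little relation to gene length or level. Over the 8 genes Spearman's rho of the change was 0.05 with gene span and 0.19 with the control level per kb, given as a description, since the genes share the same 3 columns. The spans run from 3.32 kb for *UROD* to 42.3 kb for *FECH*. *UROS*, at 38.3 kb, and *FECH* belong to the class of 26.5 to 65 kb, in which the median log2 change of 2661 genes was −0.35. Relative to this class *UROS* was at −0.53 and *FECH* at 0.04. *PPOX* was at −0.27 and *ALAS1* and *ALAD* were at 0.19 relative to the 2521 genes of 10 to 26.5 kb, whose median was −0.39. The 5 genes for mitochondrial enzymes had a median change of −0.35 and the 3 genes for cytosolic enzymes of −0.50. Each set of genes held calls and values that were not called.

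The partner genes of the pathway were taken from 4 lists of 48 names, of which 39 had a row and were tested. In the fit with spike-in scaling 25 were called lower and 0 higher, or 64.1% lower, beside 65.0% of all genes tested. Their median log2 change was −0.39. By list, the share called lower ran from 50% for mitochondrial supply to 76.9% for the regulators, and no list was tested against all genes.

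The list of genes that supply the mitochondrial steps had 12 tested genes, of which 6 were called lower and 6 were not. *SLC25A39*, a mitochondrial carrier gene, was lowest in the list at −0.63. *SLC25A37*, which encodes the iron importer mitoferrin of erythroid cells, was at −0.57 and called, while *SLC25A38*, the glycine carrier gene, was at −0.27 and was not (limma voom adjusted p = 0.0584).

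Highest in this list was *ISCA1*, a gene of iron-sulfur cluster assembly, with 829 reads in the control, 811 in dIWS1 column 1 and 813 in column 2. Its log2 change was 0.05 under spike-in scaling, and relative to the median gene it was called higher at 0.47 (limma voom adjusted p = 0.00925). *CLPX* and *GLRX5* were next, at −0.08 each, and neither was called in either fit.

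Of 8 tested genes of heme breakdown and transport 5 were called lower, with *SLC48A1*, a heme transporter gene, lowest at −0.47. *HMOX2*, the constitutive heme oxygenase gene, was at −0.39 and called (limma voom adjusted p = 0.00918), with 1314, 963 and 932 reads in the control and dIWS1 columns 1 and 2. *PGRMC2*, a heme-binding protein gene, was highest at −0.10 and not called. Of 6 tested genes of heme use 4 were called lower. *COX15*, which acts in the making of heme a, was lowest at −0.71, and *CAT*, the catalase gene, highest at −0.19 and not called.

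Among 13 tested regulator genes 10 were called lower. *KLF1*, an erythroid transcription factor gene, was lowest at −0.78, with 295 reads in the control, 163 in dIWS1 column 1 and 162 in column 2. *GATA1* was at −0.34 and called (limma voom adjusted p = 0.0247), with 1498, 1191 and 1049 reads. *NFE2* was highest at −0.08 and, like *BACH1* at −0.29 and *HIF1A* at −0.15, was not called. Relative to the median gene no regulator gene was called in either direction by limma voom with the common shift. With median-of-ratios size factors 1 partner gene of the 4 lists was lower, *TAL1* (limma voom adjusted p = 0.037), and 7 were higher, namely *ISCA1*, *CLPX*, *GLRX5*, *PGRMC2*, *CAT*, *NFE2* and *HIF1A*, beside 11.9% of all genes lower and 12.0% higher in that fit.

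**Figure D4:**
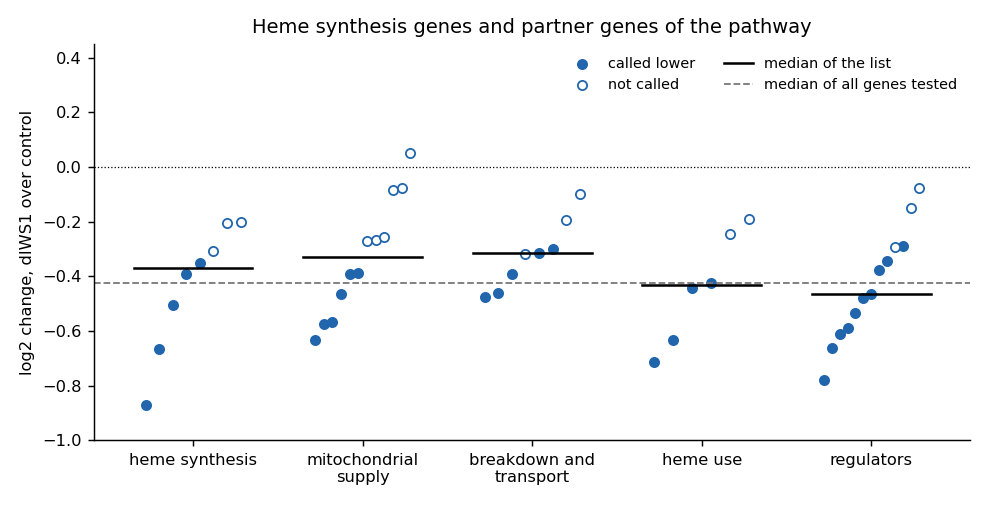
Log2 change (dIWS1 over control, spike-in scaling) of the 8 heme synthesis genes and of 39 partner genes in 4 lists, 1 point per gene. Filled points were called lower at an adjusted p under 0.05, solid bars are list medians, and the dashed line is the median of all genes tested (−0.42). *UROS* is the lowest point at −0.87 and *ISCA1*, at 0.05, the only one above 0.

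*IWS1* itself, the gene that carries the tag, had 3684 reads in the control and 2334 and 2427 in dIWS1 columns 1 and 2. Its log2 change was −0.55 (SE 0.15, limma voom adjusted p = 0.000882). dTAG7 acts on the protein, so these reads do not measure the depletion.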

How the data were processed

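Per the labels, TT-seq was done on 2 control and 2 dIWS1 samples (K562 cells with dTAG on IWS1). From 1 deposited gene table, 3 distinct columns could be analysed, 1 of control and 2 of dIWS1. The authors aligned reads with STAR 2.6.0 to GRCh38 with spike-in sequences added, kept unique alignments, and counted them per RefSeq gene with regard to strand. They left out overlapping genes and those with 10 RPK or less, and scaled libraries with spike-in size factors. The deposited signal is the mean over 4 library columns of counts divided by these factors. The authors' own comparison columns, from DESeq2, hold a log2 fold change, its error, a test score and p-values. Only the deposited log2 fold change was used, and only to place the recovered columns in their groups (read as dIWS1 over control, the direction the study's legends name) and to narrow the search for whole reads. None of its values is reported.

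Reads were recovered by writing each mean as a sum of whole multiples of the 3 smallest steps between low means (control, weight 2; each dIWS1 column, weight 1). All 10147 genes had 1 solution, within a relative distance of 5.1e-15. The 8 heme genes were searched without the fold change. Of 1000 means moved by a small random amount, 0 could be split. The size factors were 1.01 for the control, 0.993 for dIWS1 column 1 and 0.919 for column 2. The columns carry no replicate number. p-values therefore rest on the spread between the dIWS1 columns, and no spread between controls enters them.

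Changes were fitted with limma voom (limma 3.58.1, R 4.3.3) on genes with at least 10 reads over the 3 columns, with spike-in factors as library sizes. The moderated spread was in effect pooled over genes (10007 degrees of freedom). The design had foreseen edgeR for counts per sample, which do not apply to a pooled mean. Log2 ratios of single columns used a pseudocount of 0.5. Their counting intervals are exact (Clopper-Pearson, 95%, given both totals) and cover counting error only. Both fits and the recovery were tested on simulated data. The data simulated for the fits held no common gap between columns and no shift of most genes. They do not show how well the fits control errors here. Spans came from RefSeq (GRCh38.p14, 10098 genes matched), exon numbers from GENCODE canonical transcripts. Python 3.11.15, scipy 1.17.1 and matplotlib 3.10.9 were used.

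The heme genes and the partner lists were chosen with earlier results of these data known. Some partner genes of the plan are not reported here. By rule, the text names all heme genes, *IWS1*, and of each partner list up to 6 genes, the lowest, the highest and those whose call differs from the rest. *SLC25A37*, *SLC25A38*, *CLPX*, *GLRX5*, *HMOX2*, *GATA1* and the genes called with median-of-ratios factors were singled out after their values were seen. Alternatives were other scalings, filters on low reads, limma trend, thresholds, a pseudocount of 1, the control entered 2 times, and each dIWS1 column alone. Those for values relative to the median gene, and the minimum change for partner genes, were added after the data were seen.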

Additional observations from a re-analysis of the deposited data

How the results depend on the processing

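Scaling mattered most. Where the median gene is set to 0, where libraries are scaled by total reads, or where median-of-ratios factors are used, *ALAS1* turned to 0.22, 0.24 and 0.22 in this order, *ALAS2* to 0.034, 0.053 and 0.033, *ALAD* to 0.22, 0.24 and 0.22, *CPOX* to 0.073, 0.091 and 0.072 and *FECH* to 0.12, 0.13 and 0.11. The median of the heme genes turned to 0.054, 0.072 and 0.052, and that of all genes became 0, 0.018 and −0.0019. Heme genes called lower were then 1, 1 and 1, heme genes called higher 0, 1 (*ALAS1*) and 0, all genes called lower 486, 1350 and 1188 and higher 294, 1836 and 1199, and partner genes called lower 0, 2 and 1 and higher 1, 7 and 7. *UROD* (−0.08, −0.06 and −0.08) and *PPOX* (−0.24, −0.23 and −0.25) kept their direction and were no longer called. These 3 scalings remove a common shift by construction. Read against the median gene, total reads gave 1 higher heme gene, and limma trend, an adjusted p under 0.01 or a change of at least 0.5 left 0 lower.

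With a change of at least 0.5 under spike-in scaling, 3 heme genes, 10 partner genes and 3767 of all genes were lower and 6 of all genes higher. Of all genes, the 13 called higher were 6 with the adjusted p limit at 0.01, 21 at 0.1 and 8 with limma trend. With the control entered 2 times they were 55. In that fit *ALAD* (adjusted p = 0.0133 in limma voom) and *FECH* (0.0191) also passed. It called 7 heme genes lower, beside 78.3% of all genes. Entering 1 control library 2 times gives the control no spread, so these calls do not count as evidence. Without either dIWS1 column the median was −0.43 to −0.32 for heme genes and −0.47 to −0.37 for all genes, with no test, and no heme gene changed direction. Filters on low reads changed no call of a heme gene. The pseudocount enters ratios of single columns only, and a value of 1 changed no direction. No paired analysis was possible because the recovered columns carry no replicate number and only 1 control column exists. Depth limits *ALAD* most.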
